A study of Mus musculus with 20 samples.

Results

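Cxcl9, Cxcl10 and Cxcl16 are 3 chemokine genes whose products draw and hold T cells in tissue. The 3 columns were taken by name from 4 single-cell count tables, out of 27916 genes used in all, and followed in macrophage-like, dendritic-like and melanoma-like cells. CXCL9 and CXCL10 are small secreted proteins that bind CXCR3, the receptor by which activated T cells are guided into inflamed tissue. Their genes are classic targets of interferon gamma, and Cxcl10 also answers to type I interferon and NF-kB signals. CXCL16 is made as a membrane-anchored protein that can be shed by the proteases ADAM10 and ADAM17, and it binds CXCR6, a receptor of tissue-resident and effector T cells. In tumours, macrophages and dendritic cells are well known sources of these chemokines, and cells that sense interferon gamma, tumour cells included, can make Cxcl10.

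The libraries came from mice with B16-OVA tumours, a melanoma line that carries chicken ovalbumin, which then received OT-I CD8 T cells, whose shared receptor recognises an ovalbumin peptide. The transferred cells were wild-type or Tet2-/- and the mice were left untreated or given anti-PD-L1, an antibody against a ligand of PD-1, which restrains T cells. There were 4 groups of 1 library each, all taken 8 days after transfer: first wild-type untreated, then wild-type treated with anti-PD-L1, then the untreated knockout and last the treated knockout, and values are given in that order. The labels place the genotype in the transferred T cells; the genotype of the hosts, the number of animals pooled and the dose are not given. The 16 RNA and ATAC sequencing samples of the series were not analysed here.

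With 1 library a group there is no replicate, so a difference between libraries has no test. The intervals given for it are 95% intervals for counting error only. The source label names CD8 T cells from tumours, yet 966 of the 7398 cells kept were macrophage-like, 66 dendritic-like and 1238 melanoma-like, beside 5011 CD8 T cells. Median totals of unique molecular identifiers (UMIs, which mark single captured RNA molecules) were 4715 to 7473 per cell in the 4 libraries, and pairs of libraries had 1 to 10 barcodes in common. The classes were named from fixed marker lists, so the levels of these markers are no independent check of the names. All 10 macrophage, 15 dendritic, 10 melanoma and 8 CD8 T cell markers were highest in their own class among these 4 classes. The exception in size was Ccr7, at 561 CPM (a gene's UMIs scaled to a common total of all UMIs) in dendritic-like and 415 in CD8 T cells. Macrophage-like cells also held T cell RNA, with Cd3d at 113 CPM. Of the 203, 176, 406 and 181 macrophage-like cells, 150, 127, 318 and 146 were left without cells of mixed identity, which carry UMIs of another class's markers. In CD8 T cells, Tet2 was at 13.4 (10.4 to 17.1), 15.8 (13.2 to 18.8), 23.0 (19.8 to 26.6) and 18 (15.2 to 21.2) CPM, not lower in the knockout libraries. The tags come from the 3′ ends of transcripts and the place of the deletion within Tet2 is not given, so this does not check the labels, and the libraries are named here as labelled.

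Cxcl9 (ENSMUSG00000029417.9) lies at chr5:92321331-92328079 and Cxcl10 (ENSMUSG00000034855.13) nearby at chr5:92346638-92348889, while Cxcl16 (ENSMUSG00000018920.11) lies at chr11:70454389-70459984 (RefSeq, GRCm38.p6). All are protein-coding. The promoters of Cxcl9 and Cxcl10 are shown because these neighbours differed in which cells held them. Each is 300 bases around the start site on the minus strand, from RefSeq on GRCm38.p6, at chr5:92328030-92328329 for Cxcl9 and chr5:92348840-92349139 for Cxcl10. Capitals mark matches to the interferon-stimulated response element or to the kappaB motif.
Cxcl9 promoter: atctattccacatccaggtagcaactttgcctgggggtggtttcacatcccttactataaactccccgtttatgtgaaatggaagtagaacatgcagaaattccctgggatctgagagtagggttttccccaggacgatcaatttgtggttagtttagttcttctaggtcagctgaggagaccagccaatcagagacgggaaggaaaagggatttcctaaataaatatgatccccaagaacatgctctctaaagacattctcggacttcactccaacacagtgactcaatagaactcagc
Cxcl10 promoter: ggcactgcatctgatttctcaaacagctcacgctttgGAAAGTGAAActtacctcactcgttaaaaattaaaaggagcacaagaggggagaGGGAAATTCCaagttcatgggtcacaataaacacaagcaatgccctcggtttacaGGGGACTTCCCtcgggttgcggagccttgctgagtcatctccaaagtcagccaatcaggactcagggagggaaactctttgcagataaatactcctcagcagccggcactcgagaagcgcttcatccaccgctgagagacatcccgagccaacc
Both strands were searched for the interferon-stimulated response element (GAAA, any 2 bases, GAAA), the gamma-activated site (TTCNNNGAA), the kappaB motif and TATAAA. The Cxcl10 promoter held 1 response element, GAAAGTGAAA at -213 to -204 from the start site, and 3 kappaB matches, GGGAAATTCC at -159 to -150 and the overlapping GGGGACTTCC at -104 to -95 and GGGACTTCCC at -103 to -94. The Cxcl9 promoter held no match to these letters and 1 TATAAA at -195 to -190. No gamma-activated site in these letters was found in either window. Among 32851 promoters of the same length, 3.44% held the response element, 8.46% the kappaB motif, 8.30% the gamma-activated site and 13.6% TATAAA. A match is a description of the letters and no evidence of binding. Elements that differ from these letters or lie outside the window were not searched for. The lack of a match is thus no evidence that a promoter does not respond to these signals.

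Cxcl9 was high in macrophage-like cells. Summed over the macrophage-like cells of a library it stood at 513 (460.4 to 570.4), 644 (599.9 to 691), 960.4 (919 to 1003) and 1073 (1025 to 1123) CPM. Each knockout library was above each wild-type library. A Cxcl9 UMI was found in 53.2%, 47.7%, 65.5% and 74.6% of macrophage-like cells. Macrophage-like cells differed in depth between libraries, with medians of 2998, 5877, 4806 and 9110 UMIs. With every cell thinned to 2000 UMIs the shares were 39.9% (33.1 to 47.0), 35.8% (28.7 to 43.4), 53.9% (49.0 to 58.9) and 61.9% (54.4 to 69.0), exact binomial intervals. The order of the libraries was as before thinning.

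In dendritic-like cells, which present antigen to T cells, Cxcl9 was at 266, 294, 600.1 and 154 CPM, from 16, 10, 33 and 7 cells and 15, 23, 96 and 6 UMIs. Melanoma-like cells held less, at 24.0, 97.0, 154 and 63.9 CPM. A few cells carried much of it: the cell with most Cxcl9 held 6.53%, 61.3%, 25.4% and 42.6% of the UMIs. Thinned, 4.41%, 4.35%, 14.7% and 6.0% of melanoma-like cells were positive. CD8 T cells were near the bottom, at 0.413, 1.58, 1.63 and 1.62 CPM, with a UMI in 0.178% to 1.27% of cells. At a median of 4927 UMIs, against 4846.5 in macrophage-like cells, that CD8 T cell share is the level to read as background.

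**Figure D1:**
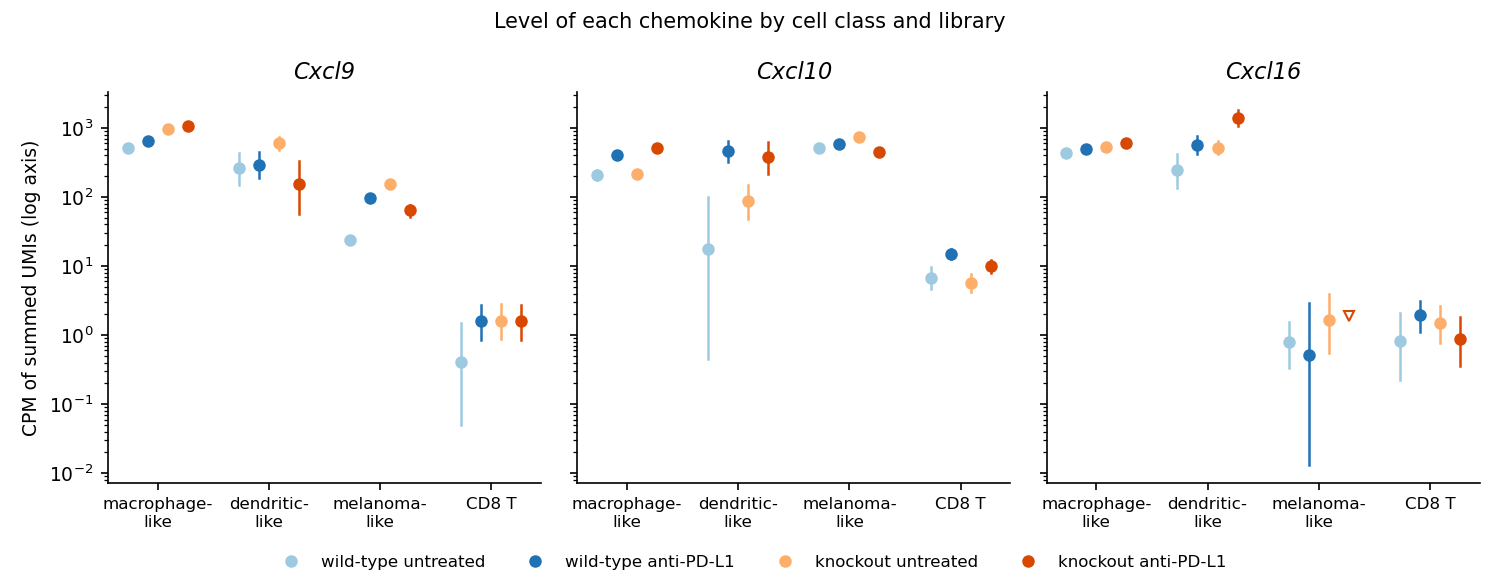
Level of Cxcl9, Cxcl10 and Cxcl16 (CPM, log axis) in 4 cell classes; each point is 1 library, bars are 95% Poisson intervals, and an open triangle marks a gene listed at 0, drawn at the level of 3 counts. Cxcl9 falls from macrophage-like to melanoma-like to CD8 T cells, Cxcl10 is at 452 to 741 CPM in melanoma-like and 212 to 505 CPM in macrophage-like cells, and Cxcl16 is near 0 in melanoma-like and CD8 T cells.

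Cxcl10 was high in both macrophage-like and melanoma-like cells. In macrophage-like cells it was at 212 (178 to 249.7), 404 (369 to 441), 214 (194 to 234) and 505 (472 to 539.6) CPM. Here the libraries split by treatment, with both anti-PD-L1 libraries above both untreated ones. A Cxcl10 UMI was found in 18.7%, 39.2%, 31.5% and 61.3% of these cells, and in 16.7%, 27.8%, 19.2% and 44.8% after thinning. In melanoma-like cells Cxcl10 was at 520.2 (506 to 534), 595 (561 to 631), 741 (710.5 to 773) and 452 (419.8 to 487) CPM. Of melanoma-like cells 65.7%, 76.8%, 68.9% and 78.0% were positive, at median depths of 10199, 25574, 13918 and 31762.5 UMIs. After thinning these shares were 39.9%, 42.0%, 39.5% and 38.0%, within each other's intervals.

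In dendritic-like cells Cxcl10 was at 17.7, 460.5, 87.5 and 384 CPM, on 1, 36, 14 and 15 UMIs. In the anti-PD-L1 libraries 1 cell held 91.7% and 93.3% of them, so these levels describe single cells. CD8 T cells held 6.82, 15, 5.76 and 9.86 CPM, with a UMI in 2.76%, 5.17%, 2.32% and 4.31% of cells.

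Cxcl16 was high in macrophage-like and dendritic-like cells and at most 1.95 CPM in melanoma-like and CD8 T cells. It was at 436 (387 to 489), 491 (452 to 532), 538 (507 to 570.1) and 604 (568 to 642) CPM in macrophage-like cells. That is a narrower spread over the libraries than for Cxcl9 or Cxcl10. Of these cells 64.0%, 77.3%, 79.3% and 86.7% were positive, and 51.2%, 52.8%, 59.4% and 62.4% after thinning. Dendritic-like cells held 248, 576, 519 and 1409.7 CPM, on 14, 45, 83 and 55 UMIs, and all 7 of these cells in the knockout library with anti-PD-L1 were positive. Melanoma-like cells held 0.784, 0.521, 1.67 and 0 CPM, on 14 UMIs in 1238 cells. The 0 of 50 cells in the knockout library with anti-PD-L1 allows up to 1.90 CPM. CD8 T cells held 0.826, 1.95, 1.5 and 0.874 CPM.

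**Figure D2:**
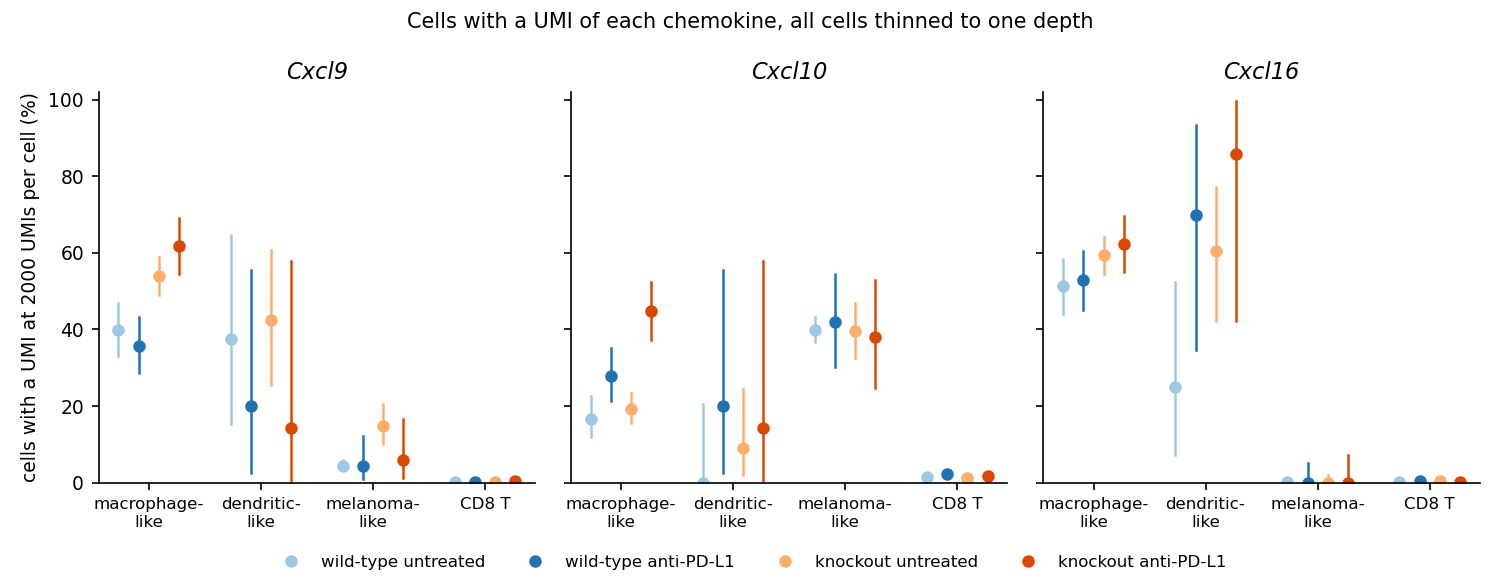
Share of cells with at least 1 UMI of each gene after thinning every cell to 2000 UMIs (percent), by class and library; bars are 95% exact binomial intervals. Cxcl9 is found in 35.8% to 61.9% of macrophage-like cells, Cxcl10 in 38.0% to 42.0% of melanoma-like cells, and Cxcl16 in 51.2% to 62.4% of macrophage-like cells.

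Class differences were tested with edgeR's quasi-likelihood test on counts summed per class and library, with the library as a block and Benjamini-Hochberg adjustment over 11511 genes. The classes were clustered without the 3 genes or the listed chemokine and interferon genes. Between macrophage-like and melanoma-like cells, Cxcl9 was higher in macrophage-like cells by 3.96 on the log2 scale (SE 0.23, adjusted p = 6.39e-11) and Cxcl16 by 9.58 (SE 0.26, adjusted p = 4.1e-15). The size of the Cxcl16 difference rests on the 14 UMIs in melanoma-like cells. Cxcl10 differed by -0.36 (SE 0.24, adjusted p = 0.198), which does not pass the threshold. Thus 2 of the 3 genes were called, where 65.0% of all genes tested were. Without the knockout library with anti-PD-L1, Cxcl10 differed by -0.74 and was called, lower in macrophage-like cells.

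Against CD8 T cells all 3 genes were higher in macrophage-like cells, by 9.40 (SE 0.32) for Cxcl9, 5.26 (SE 0.29) for Cxcl10 and 8.71 (SE 0.23) for Cxcl16 (edgeR adjusted p = 4.1e-14, 3.04e-11 and 1.69e-15), where 60.1% of genes tested were called, 29.8% higher and 30.4% lower. Melanoma-like cells exceeded CD8 T cells by 5.43 (SE 0.32) in Cxcl9 and 5.62 (SE 0.29) in Cxcl10 (edgeR adjusted p = 4.12e-11 and 7.38e-12), where 72.1% of genes were called. Cxcl16 did not pass there (-0.87, SE 0.45, edgeR adjusted p = 0.0924).

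Of the dendritic-like cells, 1 library, knockout untreated, had the 20 cells needed to enter the fit. None of the 3 genes passed the test between macrophage-like and dendritic-like cells, with log2 differences of 1.33 (SE 0.42) for Cxcl9, 1.96 (SE 0.67) for Cxcl10 and 0.41 (SE 0.32) for Cxcl16 (edgeR adjusted p = 0.0965, 0.129 and 0.608), where 3.81% of genes tested were called. With sums of at least 5 cells, which takes in all 4 libraries and was chosen after seeing the data, 14.1% were called. Cxcl9 was then higher in macrophage-like cells by 1.65 (adjusted p = 9.88e-05) and Cxcl10 by 1.06 (adjusted p = 0.0439), and Cxcl16 did not pass (0.19). Against melanoma-like cells, dendritic-like cells were higher in Cxcl9 by 2.63 (SE 0.40) and in Cxcl16 by 9.18 (SE 0.42) and lower in Cxcl10 (-2.32, SE 0.65; edgeR adjusted p = 0.00012, 3.02e-11 and 0.0193), where 16.1% of genes were called. Against CD8 T cells they were higher in all 3, by 8.07 for Cxcl9, 3.30 for Cxcl10 and 8.30 for Cxcl16 (edgeR adjusted p = 1.82e-09, 0.0206 and 4.44e-11), where 11% of genes were called. In the main fit, Cxcl9 was thus higher in macrophage-like and dendritic-like than in melanoma-like cells, and lowest in CD8 T cells. Cxcl16 was higher in macrophage-like and dendritic-like than in melanoma-like and CD8 T cells. For Cxcl10, melanoma-like cells were above the dendritic-like cells of the knockout untreated library, and all 3 classes were above CD8 T cells. Macrophage-like cells did not differ in Cxcl10 past the threshold from melanoma-like or dendritic-like cells. With 1 dendritic-like sum in that fit, its tests measure no spread between dendritic-like sums, whether they passed or not. Not passing does not place macrophage-like and dendritic-like cells level. In the anti-PD-L1 libraries, outside that fit, dendritic-like Cxcl10 was at 460.5 and 384 CPM, against 595 and 452 CPM in melanoma-like cells. In each of these libraries 1 cell held most of the dendritic-like UMIs. With sums of at least 5 cells, both Cxcl9 and Cxcl10 were called higher in macrophage-like cells.

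The class that supplied most of a chemokine's RNA in a library differed by gene and by how many cells of a class were caught. Of all Cxcl9 UMIs 54.1%, 75.6%, 77.2% and 85.3% lay in macrophage-like cells and 38.5%, 18%, 17.3% and 4.63% in melanoma-like cells. Of Cxcl10 UMIs 96.8%, 60.8%, 79.3% and 38.9% lay in melanoma-like cells and 2.59%, 26.0%, 16.3% and 47.7% in macrophage-like cells. Of Cxcl16 UMIs 89.6% to 91.8% lay in macrophage-like and 4.40% to 6.79% in dendritic-like cells. Melanoma-like cells numbered 929, 69, 190 and 50, and the sort behind these numbers is not described, so the shares describe the libraries and not the tumours.

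**Figure D3:**
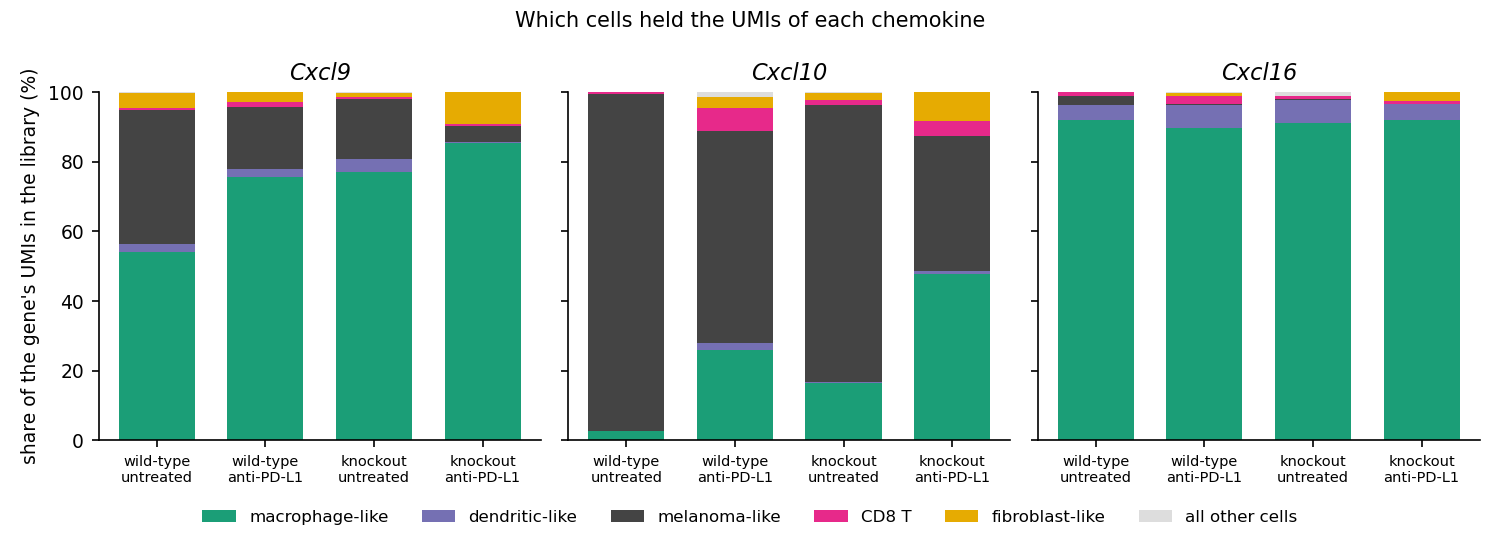
Share of each gene's UMIs by cell class (percent of the library's UMIs of that gene), 1 bar per library. Melanoma-like cells hold 96.8% of Cxcl10 in the wild-type untreated library and 38.9% in the knockout library with anti-PD-L1, while macrophage-like cells hold about the same share of Cxcl16 in all 4.

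RNA set free from broken cells can enter droplets of other cells, and was gauged with C1qa, C1qb and C1qc, complement genes of macrophages. Droplets that caught cells of different classes were not removed and can also bring C1q, so the 2 sources were not told apart. Their summed level in melanoma-like cells was 0.181%, 0.0741%, 0.171% and 0.223% of that in macrophage-like cells. Macrophage RNA in that amount would put Cxcl9 in melanoma-like cells at 0.927, 0.477, 1.64 and 2.40 CPM. The measured Cxcl9 levels were 25.9, 203, 94.0 and 26.7 times that, and Cxcl10 was 401 to 2030 times its own such level. Cxcl16 was 0.996, 1.43, 1.82 and 0 times its own such level, on 8, 1, 5 and 0 UMIs. The source of these few UMIs was not tested. Melanoma-like cells with no C1q UMI still held Cxcl10 at 494, 527, 747 and 387 CPM. Their Cxcl9 was at 26.0, 45.8, 172 and 61.3 CPM. In CD8 T cells Cxcl9 was 0.880 to 2.34 times the level free macrophage RNA would give, Cxcl16 1.88 to 3.79 times and Cxcl10 23.5 to 35.4 times. Melanoma RNA, the other large source of Cxcl10, was not taken into account there.

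Genes on the same stretch of chromosome can share tags. Art3, an ADP-ribosyltransferase gene, spans chr5:92331799-92414628 and so covers Cxcl10, and it was at 138, 97.0, 61.3 and 70.2 CPM in melanoma-like cells and at most 1.87 CPM in macrophage-like, dendritic-like and CD8 T cells. Whether the counting used the strand is not given. In melanoma-like cells without an Art3 UMI, Cxcl10 was at 319, 380.5, 364 and 127 CPM, and in those with one at 627, 638, 1044 and 533 CPM. The cells without were shallower, with medians of 7804.5, 11235, 10964 and 24511.5 UMIs against 12462, 34529.5, 21416 and 33110. Zmynd15, which overlaps Cxcl16, stood at 12.4 to 19.0 CPM in macrophage-like cells. In dendritic-like cells it was at 0, 38.4, 12.5 and 333 CPM, the last of these in the 7 cells that also had the highest Cxcl16. Its part in the Cxcl16 count was not tested.

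Between libraries, macrophage-like cells held more Cxcl9 where the transferred T cells were labelled knockout. The knockout over wild-type ratio was 1.87 untreated (log2 0.90, 0.74 to 1.07) and 1.67 with anti-PD-L1 (log2 0.74, 0.62 to 0.86). Anti-PD-L1 went with smaller differences, of log2 0.33 (0.14 to 0.52) in wild-type and 0.16 (0.07 to 0.25) in knockout. Cxcl10 behaved the other way round. It was 1.91 times higher with anti-PD-L1 in wild-type (log2 0.93, 0.66 to 1.21) and 2.37 times in knockout (log2 1.24, 1.08 to 1.41). Knockout over wild-type, Cxcl10 differed by log2 0.01 (-0.26 to 0.29) in the untreated pair and by 0.32 (0.16 to 0.48) in the treated pair. In the wild-type untreated library 1 cell held 27.5% of the Cxcl10 UMIs of macrophage-like cells, and without the highest cell of each library the untreated difference was 0.40. Cxcl16 differences were log2 0.30 (0.12 to 0.49), 0.30 (0.15 to 0.45), 0.17 (-0.03 to 0.38) and 0.17 (0.05 to 0.29), in the order knockout over wild-type untreated and treated, then anti-PD-L1 over untreated in wild-type and knockout. Alternative settings included leaving out cells of mixed identity. Over them, the 2 Cxcl9 genotype differences spanned log2 0.58 to 1.02 untreated and 0.63 to 0.92 treated. The Cxcl10 treatment differences spanned 0.82 to 1.23 in wild-type and 1.03 to 1.35 in knockout.

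A change of 1.5-fold was therefore passed by 1 member in each of the 4 macrophage comparisons, Cxcl9 in the first pair and Cxcl10 in the second. Among 4654 genes with a mean of at least 20 CPM, 25%, 11.9%, 29.6% and 9.2% passed 1.5-fold in either direction. These comparisons share libraries and are not independent of each other. In an additive fit of genotype and treatment, which leaves 1 residual degree of freedom, Cxcl9 differed by genotype by 0.82 (SE 0.20, edgeR adjusted p = 0.946) and Cxcl10 by treatment by 1.11 (SE 0.21, edgeR adjusted p = 0.206), and neither passed. For genotype, 0.0% of 7730 genes were called, with 302 at an unadjusted p under 0.05, and DESeq2 called 0, with 42 under 0.05. For treatment 0.0129% were called, which is the gene Ifitm1, and 397 were under 0.05. The other member values in this fit were 0.17 for Cxcl10 and 0.31 for Cxcl16 by genotype, and 0.26 for Cxcl9 and 0.19 for Cxcl16 by treatment.

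**Figure D4:**
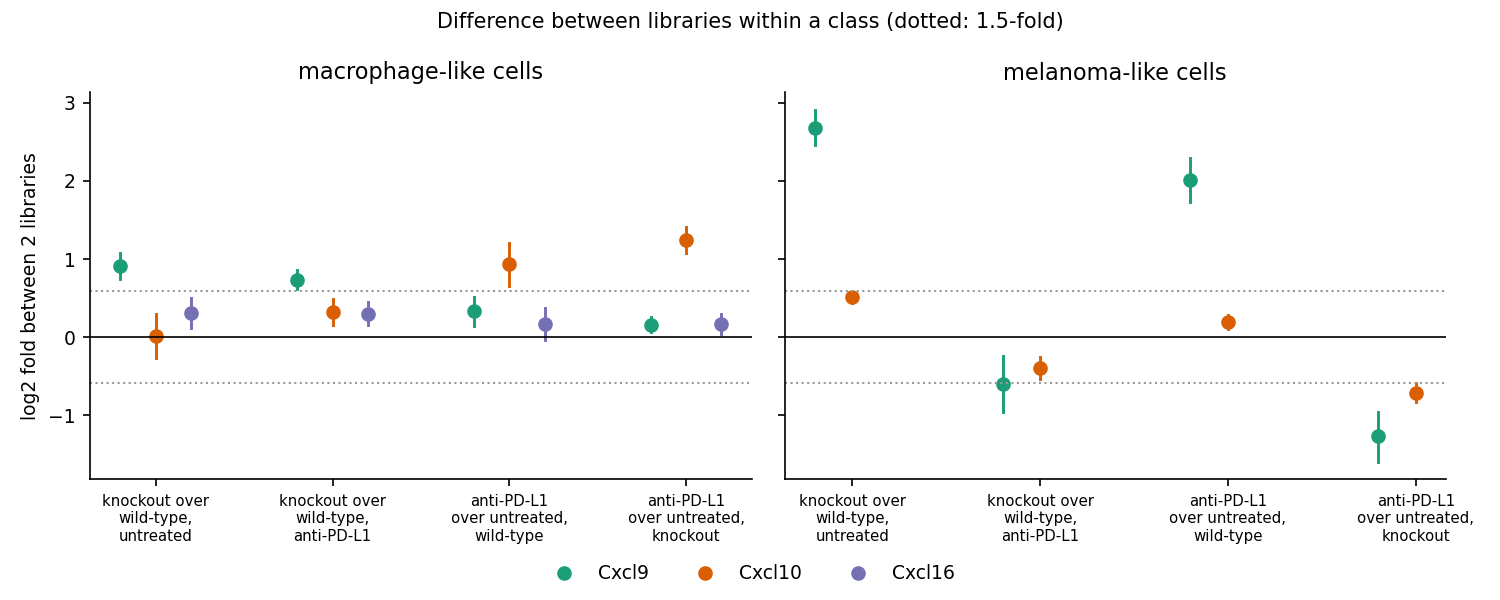
Difference between 2 libraries (log2 fold) for each gene in macrophage-like (left panel) and melanoma-like cells (right panel) with 95% counting intervals; dotted lines mark 1.5-fold. In macrophage-like cells Cxcl9 passes 1.5-fold in the 2 genotype comparisons and Cxcl10 in the 2 treatment comparisons, and in melanoma-like cells the Cxcl9 differences point both ways; Cxcl16 is not drawn there.

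In melanoma-like cells the differences did not point one way. Cxcl9 was higher in knockout than wild-type untreated (log2 2.68, 2.46 to 2.91) and lower with anti-PD-L1 (-0.60, -0.97 to -0.24). Anti-PD-L1 went with a higher level in wild-type (2.01, 1.73 to 2.30) and a lower one in knockout (-1.27, -1.60 to -0.96). Leaving out the highest cell of each library changed these 4 values to 2.36, -0.03, 0.74 and -1.65. Without cells of mixed identity they were 2.82, 1.47, 0.26 and -1.10. Cxcl10 moved less, by log2 0.51 (0.44 to 0.58), -0.40 (-0.53 to -0.26), 0.19 (0.10 to 0.29) and -0.71 (-0.84 to -0.59), and with at least 1000 genes and at most 5% mitochondrial UMIs per cell the first and last were -0.06 and 0.03. Among 5506 genes, 10.6%, 15.5%, 6.27% and 7.28% passed 1.5-fold. Those higher made up 6.36%, 6.7%, 3.51% and 2.74% of these genes and those lower 4.25%, 8.75%, 2.76% and 4.54%. The additive fit takes the genotype difference to be the same with and without anti-PD-L1, which the values 2.68 and -0.60 above are not. It has 1 residual degree of freedom and no replicate of a group, so its p-values measure no spread between replicate libraries. With that limit, it called Cxcl9 for genotype (1.27, SE 0.16, edgeR adjusted p = 3.06e-12), where 11.9% of genes were called. The call was kept by edgeR with the other barcode listing (1.18, adjusted p = 0.035), with stricter cells (1.71, adjusted p = 3.08e-07) and without cells of mixed identity (2.37, adjusted p = 4.05e-30). DESeq2 gave 1.03 and did not call it (adjusted p = 0.756), and the sign of the difference in the treated pair changed with the cells left out, as given above. Cxcl10 did not pass for genotype (0.06, edgeR adjusted p = 0.814) or treatment (-0.22, edgeR adjusted p = 0.424), and 2.53% of genes were called for treatment.

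Macrophage-like cells were not uniform in Cxcl9. The 10 sub-clusters were found without the 3 genes or the listed chemokine and interferon genes. Arg1, Spp1, Nos2 and Il1b were not left out, so their levels are no independent check of the sub-clusters. Of the 2 lowest in Cxcl9, 1 had 71.4 CPM, in 80 cells led by Mmp12, a matrix metalloproteinase. There Arg1, the arginine-degrading enzyme of suppressive macrophages, was at 2125 CPM and Spp1 at 633 CPM. A group of 31 cells led by Retnla with Lyve1, a marker of vessel-associated macrophages, held 94.9 CPM on 14 UMIs. Of these UMIs 78.6% came from 1 cell of the knockout library with anti-PD-L1, and without that library the level was 23.8 CPM. Without the wild-type library with anti-PD-L1 it was 199.6 CPM. The highest was 1707 CPM in 95 cells led by Gm13710 and Dnase1l3, with Arg1 at 3.85 CPM. Next came 1399 CPM in 116 cells led by H2-M2 and Chil1, where Nos2, the inducible nitric oxide synthase, was at 278 CPM. Thinned, 8.75% of the Mmp12-led, 3.23% of the Retnla-led and 80.0% of the Dnase1l3 cells were positive for Cxcl9.

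Cxcl10 followed another order. It was highest, at 797 CPM, in 101 cells led by Ifitm1, Slpi and Il1r2 with Il1b at 2228 CPM, and lowest, at 30.6 CPM, in the Mmp12-led cells. In the Dnase1l3 cells it was 325 CPM, and 574.5 CPM without the knockout untreated library. Cxcl16 ranged from 203 CPM in the Retnla-led to 743 CPM in the Dnase1l3 cells and stood at 528 CPM in the Mmp12-led cells. The Retnla-led value was 127 CPM without the wild-type library with anti-PD-L1. A sub-cluster of 137 cells was led by T cell genes, and 95.6% of its cells were of mixed identity, with Cxcl9 at 579 CPM.

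**Figure D5:**
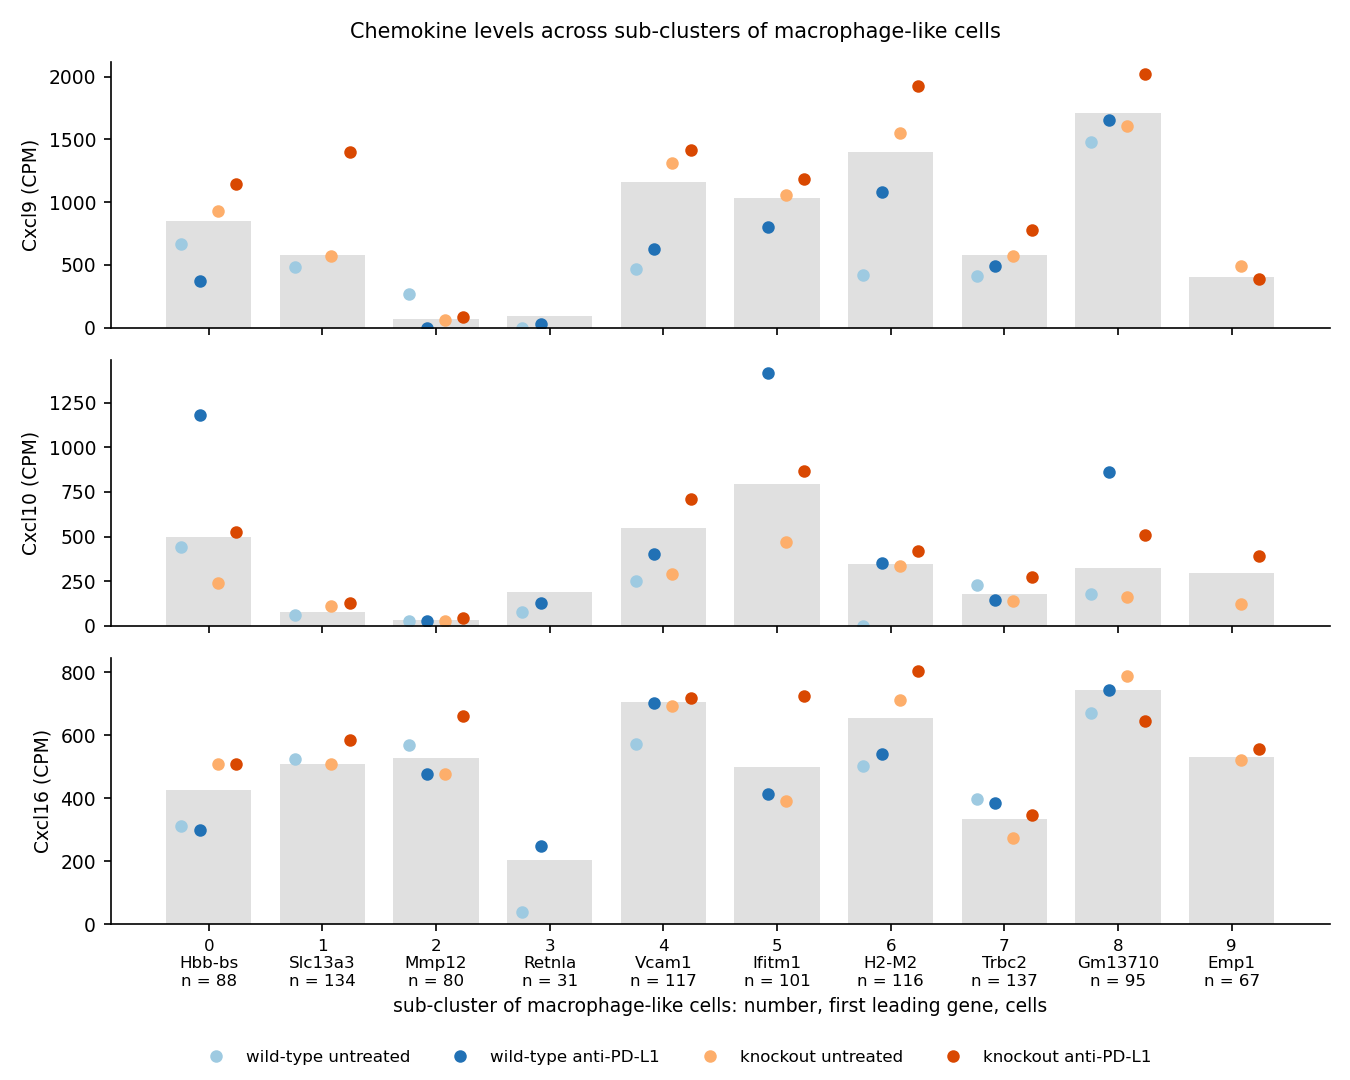
Level of the 3 genes (CPM) in the 10 macrophage-like sub-clusters, each named by its first leading gene; grey bars are all 4 libraries together and points are libraries with at least 5 cells there. Cxcl9 spans 71.4 to 1707 CPM over the sub-clusters, Cxcl10 30.6 to 797 CPM and Cxcl16 203 to 743 CPM.

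The libraries differed in which sub-clusters they held: 87 of the 203 macrophage-like cells of the wild-type untreated library lay in 1 sub-cluster led by Slc13a3 and Cd300e, and 0 lay in the one led by Emp1. Given 1 common make-up, a comparison chosen after seeing the data, the Cxcl9 knockout over wild-type difference was log2 0.58 untreated, just short of 1.5-fold, and 0.83 with anti-PD-L1. Cxcl9 was higher in knockout in 6 of 7 sub-clusters untreated and in 7 of 7 with anti-PD-L1. The sub-clusters are parts of the same libraries and not replicates. Some held as few as 5 cells of a library, and the sub-cluster led by T cell genes was among them. For Cxcl10, anti-PD-L1 over untreated was then log2 1.18 in wild-type (higher in 5 of 7 sub-clusters) and 1.03 in knockout (higher in 9 of 9). The Cxcl10 knockout over wild-type difference with anti-PD-L1 turned from 0.32 to -0.098 (higher in 4 of 7 sub-clusters). In the Vcam1-led sub-cluster Cxcl9 was at 465, 629, 1311 and 1417 CPM, from 8, 31, 28 and 50 cells.

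Cells with one of these chemokines did not always hold the others. In thinned macrophage-like cells, Cxcl10 was found in 17.3%, 39.7%, 24.7% and 51.8% of Cxcl9-positive and in 16.4%, 21.2%, 12.8% and 33.3% of Cxcl9-negative cells. Both were found in 151 of the 966 cells, against 119 if they were independent within the pool. Cxcl9 and Cxcl16 were both found in 305 cells, against 271, and Cxcl10 and Cxcl16 in 147 against 138. In melanoma-like cells Cxcl9 and Cxcl10 met in 34 of 1238 cells, against 29.9. The melanoma-like cells fell into clusters of 434, 795 and 9 cells. Cxcl10 was at 267, 339, 297 and 534 CPM in the cluster of 434 cells, led by Gsta4 and Enpp2, and at 611, 658, 1027.5 and 415 CPM in the cluster of 795 cells, led by Car6. It was thus higher in the Car6-led cluster in 3 of 4 libraries and lower in the knockout library with anti-PD-L1. Art3, which covers Cxcl10, was also among the leading genes of the Car6-led cluster. Its part in this Cxcl10 difference was not tested. Cxcl9 was at 38.7, 479.6, 288 and 169 CPM in the Gsta4-led and at 18.8, 31.4, 67.7 and 15.7 CPM in the Car6-led cluster, higher in the former in all 4 libraries. Among dendritic-like cells, Cxcl16 was at 340.4 CPM in 27 cells with Xcr1 and Clec9a, markers of cross-presenting dendritic cells, at 588 CPM in 30 cells led by Cd209a, and at 1477 CPM in 9 cells with Fscn1 and Ccr7, markers of migratory dendritic cells. In the Cd209a-led cells 50% of the Cxcl16 UMIs came from 4 cells of the knockout library with anti-PD-L1. The level there was 359.7 CPM without that library and 921 CPM without the knockout untreated library. The Fscn1 and Ccr7 cells stayed at 1345 to 1663 CPM when any 1 library was left out. However, 4 of these 9 cells (44.4%) were of mixed identity, against 7.41% of the Xcr1 and Clec9a cells and 10.0% of the Cd209a-led cells.

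Over the 16 class-by-library sums of macrophage-like, dendritic-like, melanoma-like and CD8 T cells, the genes whose levels were most like a member's were found among 8618 by Pearson correlation. These points share libraries and classes, so r describes the pattern over classes. For Cxcl9 they were Slamf8 (r = 0.98), Grn, Ifi204, AI607873 and Ctsz (r = 0.97 each), for Cxcl10 Sdcbp (0.96), Atp6v1b2 (0.95), Cd63 (0.95), Tmem59 (0.94) and 4930455G09Rik (0.94), and for Cxcl16 Gpr35, Themis2, Csf2rb and Cd40 (0.99 each). Among the members, r was 0.72 for Cxcl9 with Cxcl10, 0.77 for Cxcl9 with Cxcl16 and 0.29 for Cxcl10 with Cxcl16.

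On the receptor side, Cxcr3, the receptor for CXCL9 and CXCL10, was at 37.0, 41.8, 37.3 and 36.2 CPM in CD8 T cells, with overlapping intervals. Cxcr6, the receptor for CXCL16, was at 68.8 (61.6 to 76.6), 317 (305 to 329), 141 (133 to 149) and 316 (304 to 328) CPM. Both anti-PD-L1 libraries were thus above both untreated ones, as for Cxcl10 in macrophage-like cells. Ifng, the inducer of Cxcl9 and Cxcl10, was at 191 (179 to 204), 296 (285 to 308), 208 (198 to 218) and 426 (412 to 441) CPM. The CD8 T cells of the libraries lay in different clusters. One led by haemoglobin genes held 611, 46, 10 and 3 cells, and one led by Serpinb9b 396, 6, 30 and 16. The cluster with Cxcr6 among its leading genes held 4, 379, 253 and 284 cells, and that with Ifng 3, 385, 223 and 276. The part of this make-up in the Cxcr6 and Ifng levels was not tested. Of 6 tested genes that bind, cut or present these chemokines, 3 were higher and 3 lower in macrophage-like than CD8 T cells, with a median log2 difference of -1.04. The median of all genes tested was -0.05, and 29.8% of them passed as higher and 30.4% as lower. Sdc4, a heparan sulfate proteoglycan, was higher by 8.47 and Adam17 by 2.61. Cxcr6 (-3.45), Cxcr3 (-2.70) and Dpp4 (-2.49), the peptidase that trims CXCL10, were lower. Cxcl11, the third CXCR3 ligand, is a transcribed pseudogene in this annotation and not a column of the tables.

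Of 24 interferon gamma pathway genes, 21 were higher and 3 lower in macrophage-like than in melanoma-like cells, with a median log2 difference of 1.44, against 31.8% higher, 33.2% lower and a median of -0.07 over all genes tested. Irf8 (7.21), a transcription factor of myeloid cells, Gbp5 (3.83), a guanylate-binding protein, Ifngr1 (3.49), a chain of the interferon gamma receptor, and Socs3 (3.36), a feedback inhibitor, were among the largest. Ifng itself was also higher (4.14), in a class with T cell RNA in it, and the part of that RNA was not tested. All 13 NF-kB and inflammatory genes were higher in macrophage-like cells, among them Il1b (9.68), Ptgs2 (9.03) and Tnf (7.71), with a median of 4.57.

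Between libraries, in macrophage-like cells, 8, 8, 8 and 7 of 21 interferon gamma pathway genes past 20 CPM were at least 1.5-fold higher and 0 lower in each of the 4 comparisons. The medians were log2 0.34, 0.48, 0.36 and 0.26, against -0.05, 0.07, -0.07 and 0.05 over all genes, of which 12.8%, 6.88%, 14.1% and 5.84% were as much higher and 12.1%, 5.03%, 15.6% and 3.35% as much lower. Irf1, a transcription factor that drives Cxcl9 and Cxcl10, was at 71.6, 158, 121 and 257 CPM, and Gbp5 at 8.95, 26.4, 23.9 and 51.3 CPM. Cd274, which encodes PD-L1, was at 64.1, 108, 107 and 185 CPM. Each of these 3 genes was lowest in wild-type untreated and highest in knockout with anti-PD-L1. Of 11 NF-kB and inflammatory genes, 6, 2, 8 and 5 were higher and 0, 1, 0 and 0 lower, with Il1b at 38.8, 444, 199 and 479 CPM. Of 19 type I interferon genes, 6, 5, 5 and 1 were higher and 0 lower. Of 13 other chemokine ligands, 3, 0, 5 and 6 were higher and 5, 5, 3 and 1 lower. Cxcl2, whose product draws neutrophils, was at 104 and 794 CPM in the untreated wild-type and knockout libraries, and Ccl2, whose product draws monocytes, at 1465 and 337 CPM.

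Genes that respond to tissue handling moved beside these. Of 18 such genes, among them Fosb and Btg2, 13, 1, 14 and 6 were at least 1.5-fold higher and 1, 3, 0 and 0 lower in the same comparisons. Cxcl9 differed by log2 0.90 in the knockout over wild-type comparison with 13 of them higher and by 0.74 in that with 1. Cxcl10 differed by log2 0.93 in the anti-PD-L1 over untreated comparison with 14 of them higher and by 1.24 in that with 6. The part of the tissue handling genes in the Cxcl9 and Cxcl10 differences was not tested. In melanoma-like cells, 11, 9, 5 and 5 of 17 interferon gamma pathway genes were higher and 0 lower, where 6.36%, 6.7%, 3.51% and 2.74% of all genes were higher. Among them was Socs3 at 11.3, 24.0, 31.1 and 67.7 CPM. Cxcl9 and Cxcl10 in these cells did not keep that order of libraries. Of 15 tissue handling genes there, 5, 4, 4 and 3 were higher and 0, 1, 3 and 1 lower, with Fosb higher by log2 1.66 and Dusp1 by 1.23 in the first comparison, and their part in the differences was not tested.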

How the data were processed

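The deposited tables hold raw UMI counts per barcode and gene, whole numbers in every cell, per the labels' protocols made with 10x Chromium 3′ version 2 chemistry. The submitters' processing notes name mm10, Trim Galore 0.5.0, Genrich 0.5, HISAT2, Bowtie2, HTSeq, bedtools and DESeq2 without roles; the sources used here do not name the counter or its strand setting. Each table lists most barcodes a second time with other counts; the second listing (2384, 1680, 2312 and 1346 barcodes; 11835704 to 16209103 UMIs) was used and the first tried. Columns that were not in all 4 tables were left out (at most 0.00281% of UMIs).

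Cells with at least 500 genes and at most 10% mitochondrial UMIs were scaled to 10000 UMIs and clustered (scanpy 1.11.5, igraph 0.11.9). Clustering used 2000 variable genes, 30 components, 15 neighbours and resolution 1.0. The members and the chemokine, receptor and interferon lists were left out of it, and the other lists were kept in. Clusters were named from marker lists. Doublets were not removed and no caller was run; cells with UMIs of another class's markers were left out as an alternative. Counts were summed per class and library (at least 20 cells) and tested with edgeR 4.0.16 (R 4.3.3), with DESeq2 1.42.0 as an alternative, at an adjusted p of 0.05; the edgeR steps were tested on simulated data. The marker and gene lists and the members were chosen with earlier results of these data known. Named genes are members, up to 5 of a list per comparison that pass the test or 1.5-fold, and the 5 most alike, of which 1 is not reported here. Levels are CPM of the summed counts. Floors are 3 counts.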

Additional observations from a re-analysis of the deposited data

Results flagged for a closer look

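In melanoma-like cells the difference between the libraries had opposite signs in the 2 strata of the design, for both chemokines measured there. For Cxcl9, knockout over wild-type was log2 2.68 untreated and -0.60 with anti-PD-L1, and anti-PD-L1 over untreated was log2 2.01 in wild-type and -1.27 in knockout. For Cxcl10 the same comparisons gave log2 0.51 and -0.40 by genotype, and 0.19 and -0.71 by treatment. With 1 library a group the difference between these effects was not tested. The signs depend on the cells kept. For Cxcl9 by genotype, the treated value was -0.03 without the highest cell of each library, 0.22 with stricter cells and 1.47 without cells of mixed identity, where the untreated value was 2.36, 2.90 and 2.82. For Cxcl10 with stricter cells, the untreated value by genotype was -0.06 and that for anti-PD-L1 in knockout 0.03.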

How the results depend on the processing

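Of 276 alternative values for the members' tests 256 kept direction and side of the threshold. Of 192 for their differences between libraries 163 stayed within the counting interval. Counts of called genes stayed within 1.5 times in 83 of 97. Some alternatives could not move a value, so these counts overstate how far the results hold. The 50 CPM floor leaves every member's difference between libraries as it is. Melanoma-like cells were the same cells with the listed genes kept in the clustering and at resolution 2.0. The causes of the changes below were not tested. No paired analysis was possible because each group has 1 library, which leaves no replicates to pair between groups; the class tests compare classes within libraries, with the library as a block. Leaving libraries out of the sub-cluster levels was added after seeing the data.

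With the other barcode listing, 849 genes were called between macrophage-like and dendritic-like cells, 3060 between dendritic-like and melanoma-like cells and 0 for treatment in macrophage-like cells. Cxcl10 then differed by -0.58 between macrophage-like and melanoma-like cells, and Cxcl9, Cxcl10 and Cxcl16 by 1.96, 2.54 and 1.11 between macrophage-like and dendritic-like cells, all called. With sums of at least 5 cells (added after seeing the data), 1418, 3523 and 2681 genes were called for macrophage-like against dendritic-like, dendritic-like against melanoma-like and dendritic-like against CD8 T cells, and Cxcl9 and Cxcl10 differed by 1.65 and 1.06 in the first. With no filter on low counts, Cxcl10 differed by -0.35 between macrophage-like and melanoma-like cells, Cxcl9 by 1.27 and Cxcl10 by 1.89 between macrophage-like and dendritic-like cells, all called. Leiden resolution 2.0 gave 1.53 for that Cxcl9 difference, called.

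Leaving out 1 library gave -0.74 to -0.045 for Cxcl10 between macrophage-like and melanoma-like cells, called without the knockout library with anti-PD-L1, and 1.07 to 1.47 for Cxcl9 between macrophage-like and dendritic-like cells, called without the wild-type library with anti-PD-L1. Without cells of mixed identity, Cxcl10 between dendritic-like and CD8 T cells was 3.16 and no longer called (adjusted p = 0.0804), and Cxcl16 between melanoma-like and CD8 T cells was -1.60 and called. Pairs with dendritic-like cells gave no value without the knockout untreated library, with the listed genes kept in the clustering or with only 2 classes in the fit.

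For treatment in macrophage-like cells the count was 2 with listed genes kept, 3 at resolution 2.0, 2 with DESeq2, 0 without mixed cells and 0 with no filter. In melanoma-like cells DESeq2 called 123 genes for genotype and 27 for treatment, and stricter cells 728 for genotype. The genotype value there was 1.03 for Cxcl9 with DESeq2, and -0.12 (stricter cells) and -0.063 (no mixed cells) for Cxcl10. The treatment value was 0.84 (stricter) and -0.52 (no mixed cells) for Cxcl9 and 0.056 (stricter) for Cxcl10. For knockout over wild-type with anti-PD-L1, Cxcl9 there was 0.22 (stricter) and 1.47 (no mixed cells), and Cxcl10 for anti-PD-L1 in knockout was 0.033 (stricter).

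A 50 CPM floor left 493, 207, 579 and 166 genes past 1.5-fold in macrophage-like and 273, 345, 145 and 136 in melanoma-like cells. The mean of per-cell CPM gave 814 for anti-PD-L1 in wild-type melanoma-like cells and stricter cells 648 for that in knockout. With TMM factors, the median of all genes for knockout over wild-type, untreated, in macrophage-like cells went from -0.05 to 0.07 and the split from 598 higher and 565 lower to 765 and 395. For anti-PD-L1 in wild-type the split went from 654 and 725 to 837 and 529. In melanoma-like cells it went from 350 and 234 to 246 and 423 (knockout over wild-type, untreated), from 193 and 152 to 161 and 198 and from 151 and 250 to 181 and 199 (anti-PD-L1 in wild-type and knockout).

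DESeq2 moved the split of called genes from 297 higher and 142 lower to 162 and 182 (macrophage-like against dendritic-like), from 1046 and 802 to 1277 and 387 (dendritic-like against melanoma-like) and from 689 and 582 to 942 and 258 (dendritic-like against CD8 T cells).

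Shares over the 4 libraries, thinned to 2000 UMIs, unthinned and thinned to 5000 UMIs, were for Cxcl9 49.2%, 61.4% and 66.9% in macrophage-like and 6.06%, 14.7% and 9.22% in melanoma-like cells. For Cxcl10 they were 25.1%, 35.8% and 42.2% in macrophage-like and 39.9%, 67.3% and 57.2% in melanoma-like cells. For Cxcl16 they were 57.0%, 77.1% and 81.0% in macrophage-like and 56.1%, 72.7% and 91.3% in dendritic-like cells, and 0.808% unthinned in melanoma-like cells. Cxcl9 in dendritic-like cells went from 34.8% to 47.8% at 5000 UMIs, where 23 cells remained.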

Other observations

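A further 27 cells were fibroblast-like, led by the collagen-binding Dcn and the collagens Col3a1 and Col1a2, and held Cxcl9 at 1129.8, 355, 635 and 1965 CPM, on 28, 30, 30 and 200 UMIs from 6, 8, 8 and 5 cells. The cell with most Cxcl9 held 57.1%, 63.3%, 90.0% and 41.5% of these UMIs. Cxcl10 was listed at 0 in the 6 fibroblast-like cells of the wild-type untreated library, which allows up to 121 CPM, and was at 746, 1206 and 1483 CPM in the others. Cxcl16 was at 0, 71.0, 0 and 305 CPM, the zeros allowing up to 121 and 63.5 CPM.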
